A study of Rattus norvegicus with 4 samples.

Results

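The genes described here are 43 antioxidant and detoxification genes of the rat, with the extracellular superoxide dismutase gene Sod3 among them. They were chosen by gene symbol: a probe set stood for a member when the platform annotation gave it that symbol and no other, and where a gene had several probe sets, the brightest by mean log2 signal was used. Of the 43 genes, 40 had such a probe set and 37 were bright enough to test, out of 9163 genes tested in all. Gpx3, Nqo2 and Gstt1 were too dim to test, and Prdx1, Fth1 and Ftl1 had no probe set with their symbol alone and have no value here.

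RNA came from RT4D6, a line of rat Schwannoma cells, which are tumour cells derived from Schwann cells, the glia of peripheral nerves. The cells carried either a wild type (specific) siRNA against Sox10, a transcription factor of glia and neural crest, or a mutant (control) version of that siRNA, and all samples were labelled 48 h. Each siRNA was profiled on 2 Affymetrix rat expression arrays, and a comparison therefore rests on 1 tumour line, 1 specific siRNA and 2 arrays a group. A signal is the deposited MAS5 signal of a probe set on a linear scale, a log2 fold change is wild type minus mutant siRNA after each array was centred on its median, and values are given with the standard error (SE) of the fit. A gene is called at a limma adjusted p under 0.05 over all 16125 probe sets tested.

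Sod1, Sod2 and Sod3 encode the dismutases that turn superoxide into hydrogen peroxide, in the cytosol, the mitochondrion and the extracellular space. Catalase, the glutathione peroxidases and the peroxiredoxins remove the peroxide. Thioredoxin and glutathione supply the peroxiredoxins and glutathione peroxidases, but not catalase, with electrons that come from NADPH. Glutathione transferases, quinone reductases and aldo-keto reductases deal with electrophiles and carbonyls, and many genes of both kinds are known targets of the transcription factor Nrf2 (Nfe2l2), which binds the antioxidant response element and is held back by Keap1. Schwann cells carry these enzymes as glia of metabolically active axons, and Sod3 is tethered to the matrix outside the cell.

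Sox10 itself, the target, had signals of 163.4 and 335.4 with the wild type siRNA and 2873 and 2890 with the mutant siRNA, so the labels and the target did not conflict. All 8 glial markers tested, of 10 listed and with Sox10 among them, were lower with the wild type siRNA (summed signals 1860 and 2923 against 22040 and 17730), 3 of 5 smooth muscle markers were higher (32470 and 44330 against 6832 and 12380) and 5 of 7 markers of dividing cells were lower (12310 and 21000 against 36290 and 40600). Of the glial markers Erbb3 passed the filter on dim signals only through the mutant arrays. The study also picked Sox10, Ngfr and Erbb3 on these same arrays for their decrease, so their direction is not independent evidence. It recounts earlier profiling in which Gfap and Ngfr were lower and smooth muscle actin (Acta2) was higher. That earlier report is cited for how these arrays were obtained, so Gfap and Acta2 may not be independent evidence either. With the filter on all 4 arrays 6 of 6 glial markers were lower, and Gfap lost its call without mutant siRNA replicate 1 (adjusted p = 0.0523). The count of markers of dividing cells moved with the processing: it was 1 of 7 without an intensity trend in the test, 2 of 7 without mutant siRNA replicate 1 or replicate 2, 3 of 7 without wild type siRNA replicate 1, and 7 of 7 without wild type siRNA replicate 2, with signals as deposited or with quantile normalization. Of the smooth muscle markers 2 of 5 were higher without an intensity trend or without mutant siRNA replicate 1, since Acta2 was then not called (adjusted p = 0.0780 and 0.0808). Smtn, a smooth muscle marker that was not called, had a log2 fold change of -0.84 (adjusted p = 0.0633). Its wild type arrays both lay below its mutant arrays. It was called lower with signals as deposited (adjusted p = 0.0438) or with same-numbered arrays treated as pairs (adjusted p = 0.0127). Myh11 was not called either (1.37, adjusted p = 0.1375). Of the 8 listed, Cnn1, Tpm2 and Des were too dim to test, the last 2 with lower wild type signals. Of the 7 macrophage markers 6 were too dim to test, and Cd14 was not called. The part of these shifts in the results below was not tested, and in bulk RNA fewer cells of a type and less RNA per cell cannot be told apart. The actin controls, read at the 3' over the 5' end, gave a ratio of 1.873 on the mutant siRNA replicate 1 array and 1.386 to 1.536 on the others. The p-values measure the spread between these arrays, which the study describes as independent pairs of cell samples.

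Of the 37 members tested, 6 were lower and 5 higher with the wild type siRNA. The lower members were Sod3, Glrx, Gstm1, Nqo1, Akr7a3 and Akr1b8, and the higher ones Gpx8, Prdx5, Txnip, Gsta4 and Hmox1. As a share, 16.2% of members were lower against a background of 10.6% of all genes tested, and 13.5% were higher against 17.4%. Akr7a3 is in the count and share of lower members, although it passed the filter on dim signals only through the mutant arrays. Genes of the background could pass in the same way. In sum 29.7% of members and 28% of all genes were called, so the number of calls by itself did not set the members apart. The median log2 fold change was 0.12 over the members and 0.19 over all genes tested, and the median size of the change was 0.38 and 0.47. Both wild type arrays lay below both mutant arrays in 10 members, beside 28.0% of all genes, and above them in 11 members, beside 40.1% of all genes. Among the 2291 brightest genes tested were 22 members, of which 4 were lower and 2 higher, beside 9.95% and 23.5% of those 2291 genes. Sod3, Glrx and Akr7a3 were also picked by the study on these same arrays for their decrease, so their direction is not independent evidence, and without them 3 of 34 members were lower and 5 higher. Of the 11 called members, Sod3, Glrx, Gstm1 and Txnip kept their calls with each array left out in turn and without an intensity trend in the test, and the other 7 lost theirs under at least 1 of these.

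**Figure D1:**
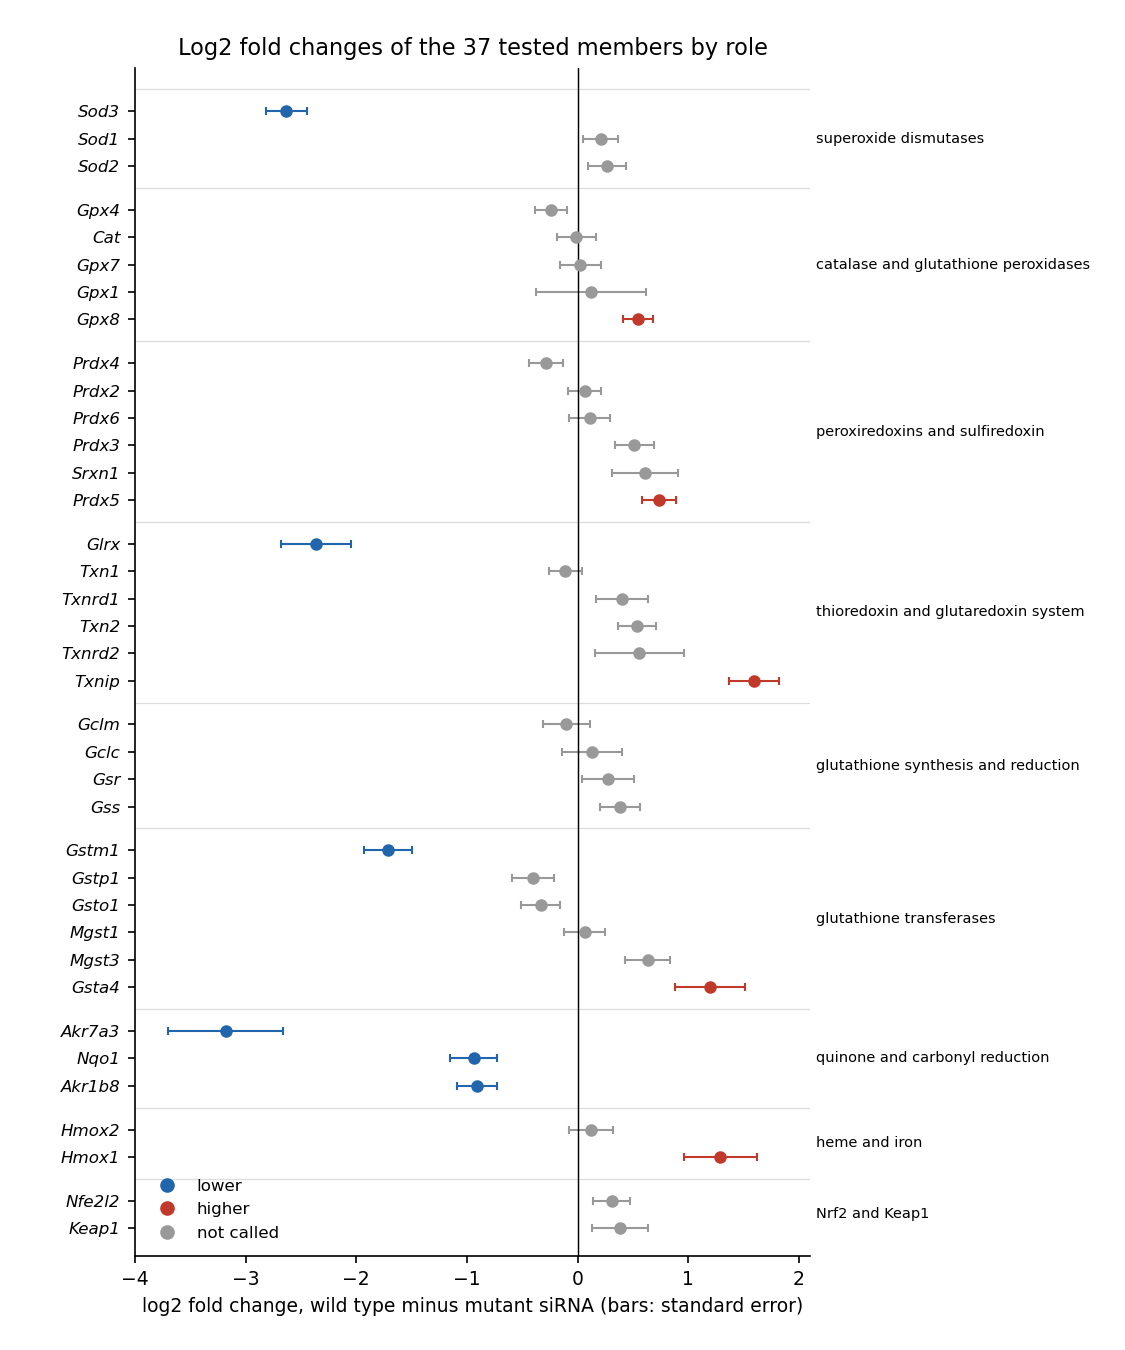
Log2 fold change (wild type minus mutant siRNA, horizontal axis) of the 37 tested members, grouped by role, with bars of 1 standard error. Blue points are lower and red points higher at a limma adjusted p under 0.05, and grey points were not called; most members lie near 0, and 6 blue points stand to the left, down to -3.18 for Akr7a3.

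Because many members are Nrf2 targets, their promoters were searched for the core of the antioxidant response element, TGACNNNGC, on both strands. RefSeq promoters on the GRCr8 assembly, 250 bases before and 50 bases after a start, were given for 34 of the 43 members. The core stood in 9 of these 34 members (26.5%), and in 3602 of all 27457 genes with a promoter in the table (13.1%). By promoter it stood in 9 of the 38 of the members (23.7%) and in 4038 of all 33469 (12.1%). Of the lower members, Glrx, Gstm1, Nqo1, Akr7a3 and Akr1b8 had a promoter in the table, and 0 of these 5 held the core in this short window. Of the 8 tested members that held it, 0 were lower, 1 was higher (Prdx5) and 7 were not called. The 6 members whose core lay wholly before the start are printed here, on the strand on which it reads, with the core in capitals. The cores of Gstp1 and Prdx1 also hold the letters of an AP-1 site (TGACTCA).
Gclm, chr2:213031955-213031979, minus strand: gaagacaaTGACTAAGCagaaaccg
Gstp1, chr1:210769750-210769774, minus strand: cactgtgtTGACTCAGCatccgggg
Hmox2, chr10:11337691-11337715, plus strand: ggccaagcTGACACTGCcttccaag
Prdx1, chr5:135383763-135383787, minus strand: gcggggtaTGACTCAGCgctttccc
Sod2, chr1:50050187-50050211, plus strand: ctaggcgcTGACCCTGCcggcagcg
Txnrd1, chr7:22755966-22755990, plus strand: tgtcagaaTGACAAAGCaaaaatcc

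The core began 172 bases before the start in Gclm, 135 in Prdx1, 95 in Hmox2, 78 in Txnrd1, 61 in Gstp1 and 35 in Sod2. The core shared by Sox proteins, ACAAT, was searched for in the same way and stood in 8 of the 34 members (23.5%) and in 9579 of the 27457 genes (34.9%). By promoter the shares were 8 of 38 (21.1%) and 11268 of 33469 (33.7%). It was in none of the promoters of the 5 lower members that had one in the table, and the 7 tested members that held it were not called. Sod3, also lower, had no promoter in the table. The study searched a wider region, further upstream and into the gene, and its Sod3 site lies further upstream than this window reaches. In Gclm the letters acaat share their last base with the antioxidant response element core printed above. A match is a description of these letters and says nothing on binding.

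Of the 3 dismutases Sod3 was called, and it was lower. It had signals of 1471 and 1875 with the wild type siRNA, against 11240 and 10520 with its mutant form. The groups lay far apart, and the 2 arrays of each group lay close together. The log2 fold change was -2.63 (SE 0.19, adjusted p = 0.000584), 6.20-fold lower, which placed its probe set 165th from the lowest of the 16125 tested. The difference was -2.90 between the replicate 1 arrays and -2.36 between the replicate 2 arrays, and leaving out an array in turn gave -2.43 to -2.83. The study followed Sod3 up with assays that are not analysed here. Its primers are printed because they mark the stretch of chromatin and the transcript that those assays read.
Sod3 ChIP, sense: cacaccacagtcctggagagag
Sod3 ChIP, antisense: agacgcagtcagtgaccttcag
Sod3 RT-PCR, sense: cgttcttgggagagcttgtc
Sod3 RT-PCR, antisense: aggtctttggagtgcgtgtc

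The intracellular dismutases were not called. Sod1, the copper and zinc enzyme of the cytosol, had signals of 19180 and 15250 with the wild type and 17150 and 14280 with the mutant siRNA. These groups overlapped, and the log2 fold change was 0.21 (SE 0.16, adjusted p = 0.364). Sod2, the manganese enzyme of mitochondria, ranged from 2392 to 2937 over the arrays, with a log2 fold change of 0.27 (SE 0.17, adjusted p = 0.279).

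The tested genes that make superoxide or deliver copper to the dismutases were higher where Sod3 was lower. Of 11 listed, 6 were bright enough to test, and 6 of these 6 were higher with the wild type siRNA. Their median log2 fold change was 1.20, and 17.4% of all genes tested were higher. Nox1, Cybb, Ncf1 and Xdh were too dim to test. In Nox1 and Cybb both wild type arrays lay below both mutant arrays, and in Ncf1 and Xdh the groups overlapped. Slc31a1, the copper importer of the plasma membrane, had signals of 2540 and 2191 against 742.0 and 991.5 with the mutant siRNA, a log2 fold change of 1.54 (SE 0.21, adjusted p = 0.00289). Atp7a, the pump that loads copper onto secreted enzymes, had 1352 and 1493 against 572.2 and 557.1, a log2 fold change of 1.41 (adjusted p = 0.00342). In both genes the arrays of a group lay close together and the groups were well separated. The remaining members of the list that were tested were Nox4, an NADPH oxidase (1.71, adjusted p = 0.0164), its partner Cyba (0.97, adjusted p = 0.00550), Ccs, which hands copper to Sod1 (0.99, adjusted p = 0.0103), and Atox1, a copper chaperone (0.89, adjusted p = 0.0109), with log2 fold changes in brackets. Nox4 was no longer called without mutant siRNA replicate 1 (1.20, adjusted p = 0.0660), nor were Ccs (0.83, adjusted p = 0.0689) and Atox1 (0.80, adjusted p = 0.0706) without mutant siRNA replicate 2.

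**Figure D2:**
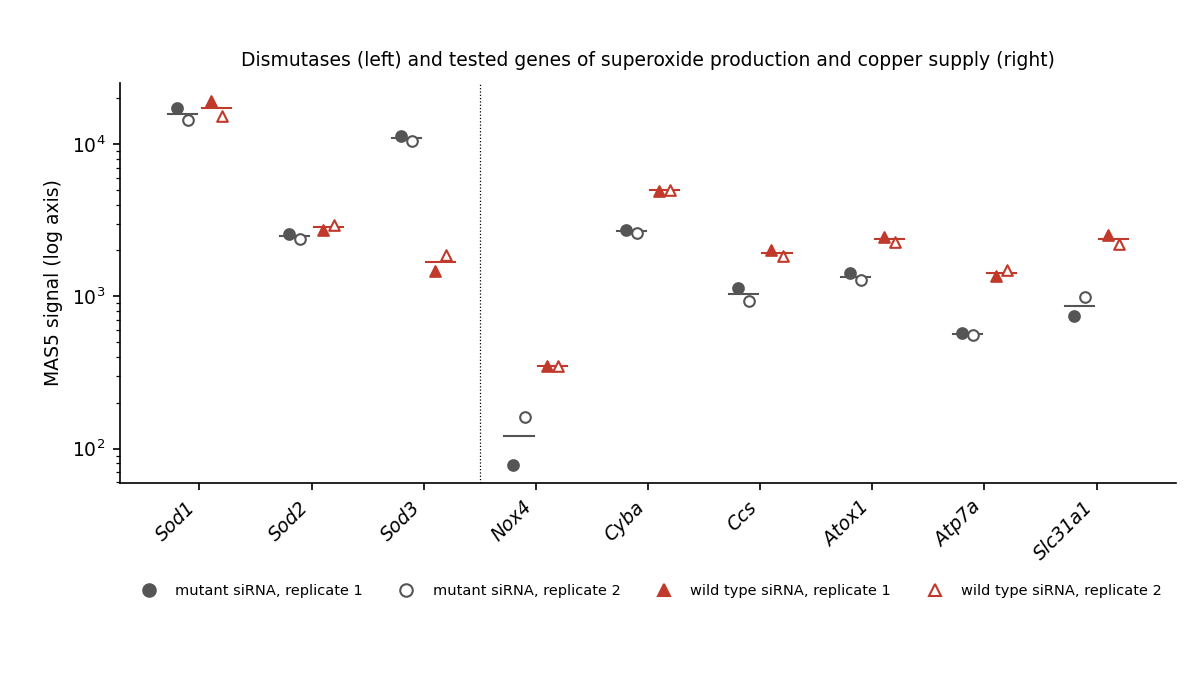
MAS5 signals (log axis) for the 3 dismutases (left of the dotted line) and the 6 tested genes of superoxide production and copper supply (right). Grey circles are mutant siRNA arrays, red triangles wild type siRNA arrays, filled for replicate 1 and open for replicate 2, and lines are group means; Sod3 drops to 1471 and 1875 while both triangles lie above both circles for each gene on the right.

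Among the enzymes that remove hydrogen peroxide, catalase and most glutathione peroxidases were not called, and Gpx8 was higher. Gpx8, a peroxidase of the endoplasmic reticulum, had signals of 15320 and 14000 with the wild type and 10080 and 11100 with the mutant siRNA. These groups did not overlap, but the difference was small, with a log2 fold change of 0.55 (SE 0.14, adjusted p = 0.0218). The call was lost without any 1 of 3 arrays (adjusted p = 0.104 without wild type siRNA replicate 1, 0.108 without mutant siRNA replicate 1 and 0.0695 without mutant siRNA replicate 2). Cat, the catalase gene, ranged from 3528 to 4450 and had a log2 fold change of -0.01. Gpx4, which reduces lipid peroxides in membranes, was at -0.24 (adjusted p = 0.242), and it passed under quantile normalization (-0.38, adjusted p = 0.0457). Gpx7 was at 0.03. Gpx1, the cytosolic peroxidase, was at 0.12 with an SE of 0.50, the widest among the peroxidases, since its replicate 2 arrays were brighter than its replicate 1 arrays in both groups. Gpx3, a secreted peroxidase, was too dim to test, with signals of 4.5 to 15.9.

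Of the 6 peroxiredoxin and sulfiredoxin genes tested, 1 was called, beside 28% of all genes tested. Prdx5, a peroxiredoxin of mitochondria and peroxisomes, had signals of 8832 and 9251 with the wild type and 5335 and 6166 with the mutant siRNA. Its groups did not overlap, and the log2 fold change was 0.74 (SE 0.15, adjusted p = 0.0115). Leaving out mutant siRNA replicate 1 ended the call (0.65, adjusted p = 0.0721). Prdx2, an abundant cytosolic peroxiredoxin, had signals of 13100 and 11480 against 13230 and 11590, which overlapped (log2 fold change 0.07). Prdx3 of mitochondria was at 0.51 with groups that did not overlap (adjusted p = 0.0633), Prdx4 of the secretory pathway at -0.29 and Prdx6 at 0.11. Srxn1, the sulfiredoxin that restores overoxidized peroxiredoxins, had probe sets that differed in call: the brighter was at 0.61 (adjusted p = 0.154) and another at 0.98 (adjusted p = 0.0304).

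In the thioredoxin and glutaredoxin system, Glrx was lower and Txnip higher, and both had the same call with any array left out. Glrx, the glutaredoxin of the cytosol, which removes glutathione from protein thiols, had signals of 204.4 and 352.4 with the wild type siRNA, against 1207 and 1770 with its mutant form. Its groups did not overlap, and the log2 fold change was -2.37 (SE 0.32, adjusted p = 0.00279), 5.16-fold lower. A second probe set of Glrx gave 225.5 and 435.0 against 1167 and 1231, a log2 fold change of -1.86 (adjusted p = 0.00626). Both probe sets thus moved the same way.

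Txnip, which binds thioredoxin and limits glucose uptake, had signals of 860.5 and 769.9 with the wild type and 301.1 and 268.9 with the mutant siRNA. The groups were well separated, with a log2 fold change of 1.60 (SE 0.23, adjusted p = 0.00326), 3.02-fold higher. Its probe set, like that of Nqo1, can match several transcripts. Txn1, the cytosolic thioredoxin that Txnip binds, had signals of 35450 and 28770 against 39890 and 33310, which overlapped, and a log2 fold change of -0.11 (adjusted p = 0.602). Txn2, the mitochondrial thioredoxin, was at 0.54 with groups that did not overlap and an adjusted p of 0.0524. The thioredoxin reductases Txnrd1 and Txnrd2 were not called (0.40 and 0.56), and a second probe set of Txnrd1 had the opposite sign (-0.41, adjusted p = 0.314).

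**Figure D3:**
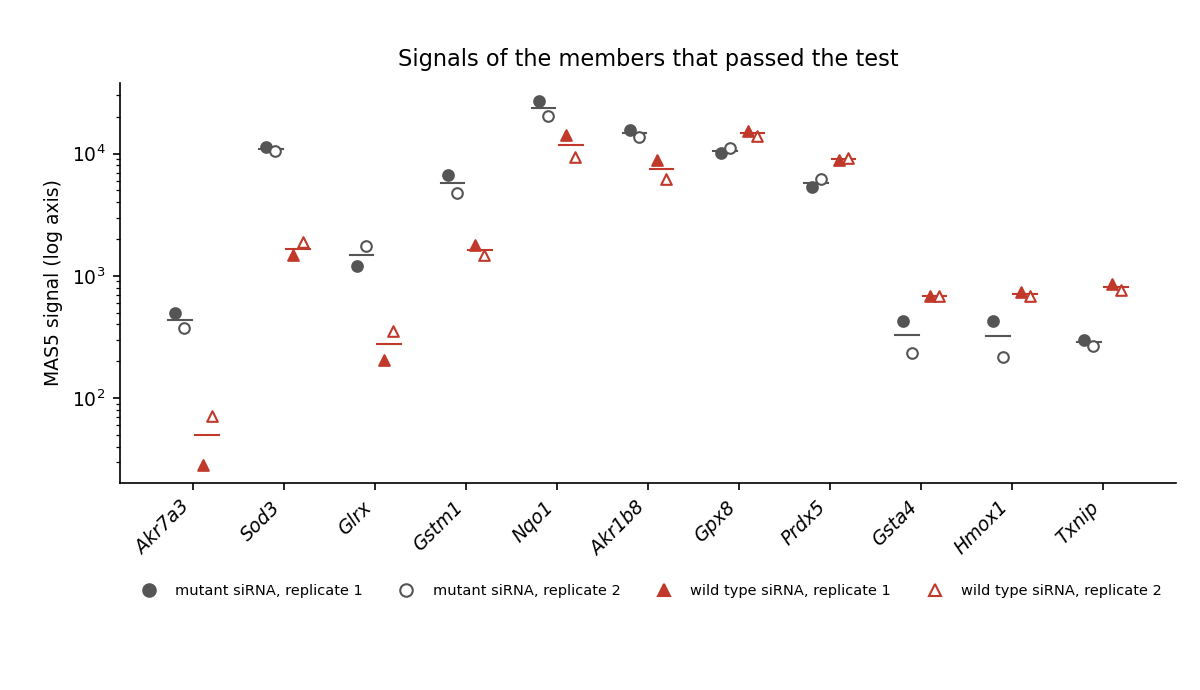
MAS5 signals (log axis) of the 11 members that passed the test, ordered from the lowest to the highest log2 fold change. Grey circles are mutant siRNA arrays and red triangles wild type siRNA arrays, filled for replicate 1 and open for replicate 2, with lines at group means; the triangles lie below the circles from Akr7a3 to Akr1b8 and above them from Gpx8 to Txnip.

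The enzymes that make and recycle glutathione were not called. Gclc and Gclm, the subunits of the enzyme that limits glutathione synthesis, were at 0.13 and -0.10, Gss, the synthetase, at 0.38 (adjusted p = 0.152) and Gsr, the reductase, at 0.27. The groups overlapped in Gclc, Gclm and Gsr and did not in Gss, where the mutant siRNA signals were 1239 and 1249.

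Other genes around glutathione were called in both directions. Of 12 tested genes of glutathione supply and export, 4 were lower and 3 higher, where 10.6% and 17.4% of all genes tested were. The 4 include Slc7a11, which could enter the test only through the arrays on which it is high. Without mutant siRNA replicate 2 the count was 1 lower and 1 higher. Ggct, which cleaves gamma-glutamyl amino acids, and Hagh, which hydrolyses glutathione thioesters, were among those that lost their calls there (adjusted p = 0.0794 and 0.0941), Ggct also without mutant siRNA replicate 1 (adjusted p = 0.107) and Hagh also without an intensity trend (adjusted p = 0.0502). Slc7a11, the cystine carrier of the plasma membrane, had signals of 64.5 and 62.6 with the wild type siRNA and 265.5 and 634.7 with the mutant siRNA, a log2 fold change of -2.61 (SE 0.46, adjusted p = 0.00644). It passed the filter on dim signals only through its mutant siRNA arrays, and leaving out mutant siRNA replicate 2 ended the call (adjusted p = 0.0755). Its partner Slc3a2 had signals of 2046 and 1954 against 3958 and 5846, a log2 fold change of -1.19 (adjusted p = 0.00644). Abcc4, an exporter of organic anions, was at -1.08 (adjusted p = 0.0117) and lost its call without mutant siRNA replicate 1 (adjusted p = 0.0572) or replicate 2 (adjusted p = 0.0754). Oplah, which opens oxoproline in glutathione turnover, was at 1.64 (adjusted p = 0.0119) and lost its call without mutant siRNA replicate 2 (adjusted p = 0.0582).

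Glutathione transferases went in both directions. Gstm1, a transferase of the mu class, had signals of 1789 and 1478 with the wild type siRNA, against 6655 and 4766 with its mutant form. The groups did not overlap, and the log2 fold change was -1.71 (SE 0.21, adjusted p = 0.00241), 3.28-fold lower. The genes of this class are similar in sequence, and signal from one in the probe set of another was not tested; Gstm4, Gstm5 and Gstm7 were not called (0.56, 0.53 and -1.20, the last with an adjusted p of 0.0817). Gsta4, which conjugates lipid peroxidation products such as 4-hydroxynonenal, had signals of 683.2 and 680.0 with the wild type and 424.8 and 232.3 with the mutant siRNA. The wild type arrays were nearly equal and the mutant arrays were not, and the log2 fold change of 1.20 (SE 0.31, adjusted p = 0.0256) became 0.74 (adjusted p = 0.132) without mutant siRNA replicate 2.

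Gstp1, the pi class transferase, had signals of 23700 and 15780 against 29570 and 24660. These groups did not overlap, yet the wild type arrays lay far from each other and the gene was not called (-0.40, SE 0.19, adjusted p = 0.148). Gsto1 was at -0.33, Mgst1 of membranes at 0.06, and Mgst3 at 0.63 with an adjusted p of 0.0512, the closest to the threshold of the 26 members that were not called. Gstt1 was too dim to test, with signals of 35.6 and 63.2 against 199.6 and 82.6.

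Among the members that reduce quinones and carbonyls, Nqo1 and Akr1b8 were lower with the wild type siRNA, where 10.6% of all genes tested were lower. Akr7a3 was called lower too, but it could enter the test only through the arrays on which it is high and is not counted with them. Nqo1, the quinone reductase that is a standard Nrf2 target, had signals of 14170 and 9400 with the wild type and 26960 and 20290 with the mutant siRNA. Its groups did not overlap, and the log2 fold change was -0.94 (SE 0.21, adjusted p = 0.0156), 1.92-fold lower. Akr1b8, an aldo-keto reductase, had 8802 and 6178 against 15600 and 13710, a log2 fold change of -0.91 (SE 0.18, adjusted p = 0.0105). In both genes each wild type array lay below each mutant array, by less than 3-fold in either pair of same-numbered arrays.

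Akr7a3, the aflatoxin aldehyde reductase, had signals of 28.4 and 71.5 with the wild type siRNA, against 497.9 and 373.4 with its mutant form. The first of these lay near the 25th percentile of its array (27.9), and the probe set passed the filter only through the mutant arrays, so it had to differ to be tested. The log2 fold change was -3.18 (SE 0.52, adjusted p = 0.00519), with -4.10 and -2.26 in the pairs, and the size of the change is uncertain. Without mutant siRNA replicate 1 all 3 of these calls were lost (Nqo1 -0.72, adjusted p = 0.0930; Akr1b8 -0.80, adjusted p = 0.0676; Akr7a3 -2.95, adjusted p = 0.0551). Nqo2, with signals of 2.5 to 28.9, was too dim to test.

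Hmox1, the inducible heme oxygenase and another standard Nrf2 target, went the other way from Nqo1. It had signals of 730.3 and 684.3 with the wild type and 427.8 and 218.3 with the mutant siRNA. The groups did not overlap, but the mutant arrays differed from each other, and the log2 fold change of 1.29 (SE 0.33, adjusted p = 0.0239) became 0.79 (adjusted p = 0.115) without mutant siRNA replicate 2. Hmox2, the constitutive heme oxygenase, was at 0.12 with overlapping groups. Nfe2l2, the gene of Nrf2, had signals of 2869 to 3592 and a log2 fold change of 0.31 (adjusted p = 0.195). Keap1 was at 0.38 (adjusted p = 0.287) and at 0.22 in a second probe set. Nrf2 is known to be controlled mainly as a protein, which these arrays do not measure.

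**Figure D4:**
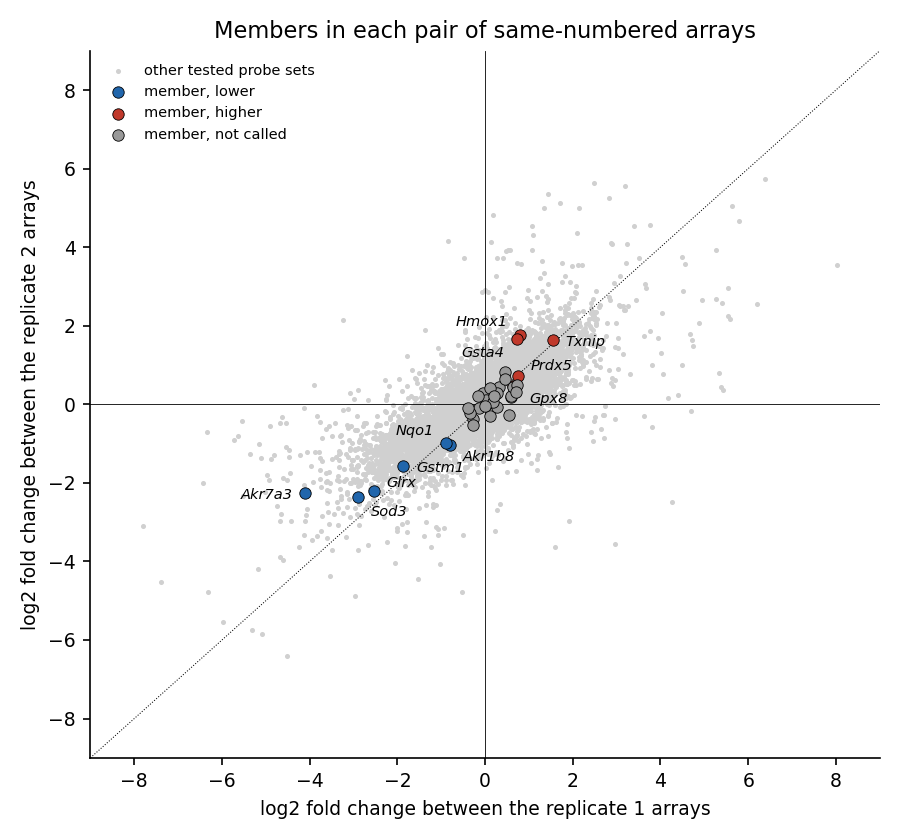
Log2 fold change (wild type minus mutant siRNA) between the replicate 1 arrays (horizontal axis) against that between the replicate 2 arrays (vertical axis). Light dots are the tested probe sets that carry a single gene symbol. Large points are the 37 members, blue for lower, red for higher and grey for not called. The dotted line marks equal values. Of the called members Prdx5, Nqo1 and Txnip lie nearest that line. Sod3 (-2.90 and -2.36) lies further off, and Akr7a3 (-4.10 and -2.26), Gsta4 and Hmox1 lie furthest from it.

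The same-numbered arrays show how even each change was. For the called members with the most even changes, the log2 fold changes in pair 1 and pair 2 were 1.55 and 1.64 for Txnip, 0.76 and 0.71 for Prdx5, and -0.89 and -0.99 for Nqo1. They were 0.72 and 1.67 for Gsta4 and 0.81 and 1.77 for Hmox1, whose replicate 2 pair differed more. The members' median was 0.19 in pair 1 and 0.18 in pair 2.

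Beyond the members, 89 tested genes of 8 neighbouring lists were read from the same fit. Of these, 11 were lower (12.4%) and 24 higher (27%), against 10.6% and 17.4% of all genes, with a median log2 fold change of 0.25. The 11 include Slc7a11, which was tested only through its mutant siRNA arrays. Leaving out an array gave 6 to 11 lower and 10 to 27 higher, the fewest without mutant siRNA replicate 2 (6 lower, 10 higher), and without an intensity trend 8 were lower and 14 higher. Of 14 other genes of peroxide, thioredoxin and glutaredoxin chemistry, 5 were higher and 0 lower, among them the methionine sulfoxide reductases Msrb2 and Msrb1 (log2 fold changes 1.98 and 1.33, adjusted p = 0.00638 and 0.00287), the sestrin Sesn3 (1.93, adjusted p = 0.00235) and the selenoprotein Selenot of the endoplasmic reticulum (0.59, adjusted p = 0.0286). The call of Selenot was lost when any array was left out, with adjusted p from 0.0633 to 0.139, and without an intensity trend (adjusted p = 0.0996).

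Of 23 other detoxification enzymes, 5 were lower and 4 higher, where 10.6% and 17.4% of all genes tested were. Aldh1a1, the retinaldehyde dehydrogenase, was at -2.89 (adjusted p = 0.00920), with mutant siRNA signals of 2142 and 551.8 that were far apart, and it was not called without an intensity trend (adjusted p = 0.0514). Gsta1, an alpha class transferase, was at -1.49 (adjusted p = 0.00334), opposite in direction to Gsta4. The sulfurtransferase Tst was at -1.43 (adjusted p = 0.0158) and lost its call without mutant siRNA replicate 1 (adjusted p = 0.124). Ephx1, the microsomal epoxide hydrolase, was at 1.44 (adjusted p = 0.0154), a call lost without wild type siRNA replicate 1, mutant siRNA replicate 1 or mutant siRNA replicate 2 (adjusted p = 0.0897, 0.0589 and 0.0604).

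Of 10 genes that supply NADPH, 1 was lower and 3 higher, beside 10.6% and 17.4% of all genes tested. Pgd of the pentose phosphate pathway was at 1.01 (adjusted p = 0.00644), and Taldo1 of the same pathway at -0.89 (adjusted p = 0.0290). Idh1 was at 1.01 (adjusted p = 0.0342) and Me1, the cytosolic malic enzyme, at 0.68 (adjusted p = 0.0456). Of these, Pgd alone kept its call with each array left out. Taldo1 lost it without wild type siRNA replicate 2 or mutant siRNA replicate 1 (adjusted p = 0.0777 and 0.158), Idh1 without wild type siRNA replicate 1 or mutant siRNA replicate 2 (adjusted p = 0.100 and 0.182), and Me1 without any 1 of the 4 arrays (adjusted p from 0.0684 to 0.240). Without an intensity trend Taldo1, Idh1 and Me1 were not called (adjusted p = 0.111, 0.107 and 0.0992).

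Regulators and iron genes are given beside 28% of all genes called. Of 14 regulators of Nrf2 and heme genes, 2 were higher, Alas1, which starts heme synthesis (1.24, adjusted p = 0.0272), and Rbx1, a subunit of the ligase that marks Nrf2 for destruction (0.86, adjusted p = 0.0106). Both calls ended when mutant siRNA replicate 2 was left out (adjusted p = 0.149 and 0.0654), and that of Alas1 also without wild type siRNA replicate 1 (adjusted p = 0.0829). Of 9 iron genes, the transferrin receptor Tfrc was lower (-0.96, adjusted p = 0.0120) and the aconitase Aco1, which binds iron-responsive RNA, higher (0.74, adjusted p = 0.0266), and neither call held with mutant siRNA replicate 2 left out (adjusted p = 0.0795 and 0.0879). That of Aco1 was also lost without wild type siRNA replicate 1 (adjusted p = 0.110) or mutant siRNA replicate 1 (adjusted p = 0.124). Without an intensity trend in the test none of these 4 genes was called (adjusted p = 0.0863 for Alas1, 0.0697 for Rbx1, 0.0657 for Tfrc and 0.0771 for Aco1), and 1 regulator was, Bach1, a repressor of Nrf2 targets (-1.50, adjusted p = 0.0342), which passed the filter only through its mutant siRNA arrays and had an adjusted p of 0.147 with the trend. The 1 metallothionein bright enough to test, Mt2A, was not called (-0.22).

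**Figure D5:**
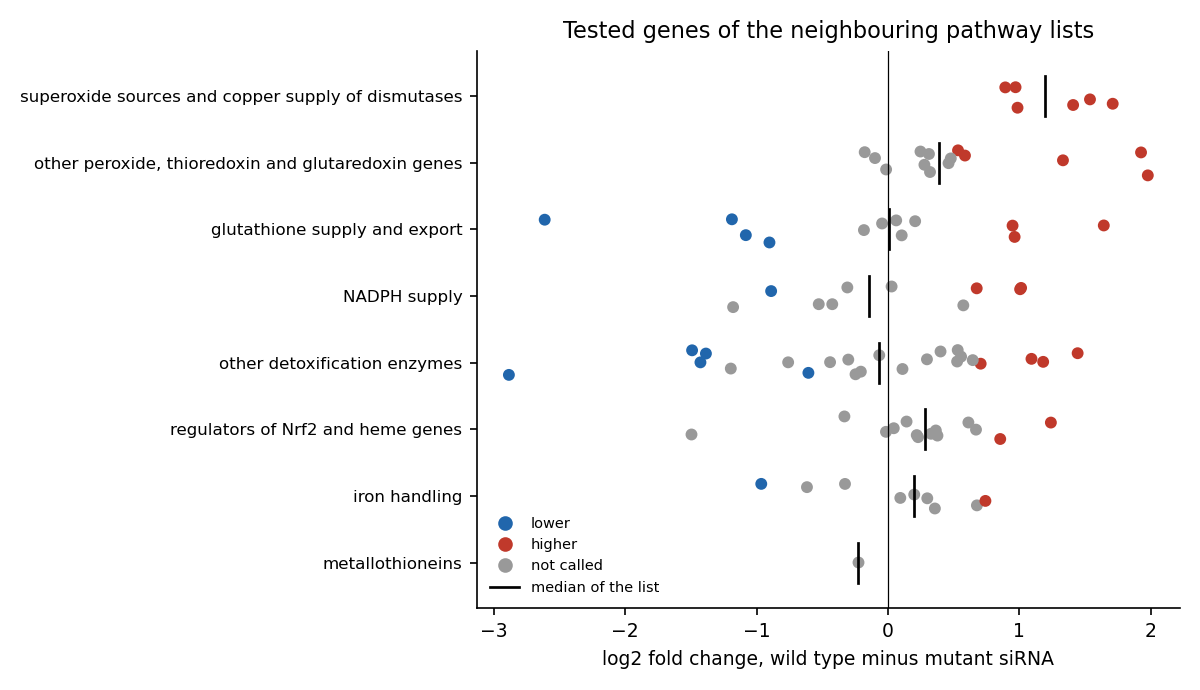
Log2 fold change (wild type minus mutant siRNA, horizontal axis) of the 89 tested genes of 8 neighbouring lists, 1 row a list, with vertical scatter for legibility only. Blue is lower, red higher and grey not called, and black bars are medians; the 6 genes of superoxide sources and copper supply all lie to the right, with a median of 1.20, while the other lists spread to both sides of 0 or near it.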

How the data were processed

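Per the labels, RNA of RT4D6 cells was hybridized to 1-colour Affymetrix rat expression arrays, 2 with wild type and 2 with mutant Sox10 siRNA. The authors deposited an intensity for each probe set, the MAS5 signal, which is linear (MAS5 is named in the submitters' processing notes, and its version is not given in the sources used here), and the 2% trimmed mean of each array is 500. The authors' median normalization and filters are not in these values. Array medians were 101.3 to 110.4 and 25th percentiles 26.2 to 31; their number limits the precision of the comparisons.

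Of 31099 probe sets, 57 controls were left out. Symbols came from the platform annotation, which gives 1 symbol to 20826 of the other 31042, several to 436 and none to 9780. The array median was subtracted from log2 signals, and the 16125 probe sets at or above that median on at least 2 of 4 arrays entered the fit (R 4.3.3, limma 3.58.1, lmFit and eBayes with trend), two-sided, with Benjamini-Hochberg adjustment over all of them. This filter stood in for detection calls, which were not used. Counts over genes used 1 probe set a gene. The code was checked on simulated data. Tables and promoter searches used Python 3.11.15 with pandas 2.3.3, and plots matplotlib 3.10.9.

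The median log2 fold change of the tested probe sets was 0.13 after centring, 0.05 as deposited and 0.08 after quantile normalization. Changes are relative to the array median over the 31042 probe sets without controls, not to the median of the tested ones. Members and gene lists were chosen with earlier results of these data known. All members may be named, with values on every array for those called or among the 6 brightest. Of each other list the 4 called genes with the largest changes were named. Cyba, Atox1, Gss, Gstt1, Gstm4, Gstm5, Gstm7, Mt2A, Ggct, Hagh, Bach1, Erbb3, Gfap, Acta2, Smtn, Col1a1 and Col3a1 were added, or given array by array, after their values were seen. The study describes independent pairs of cell samples without tying replicate numbers to them. Deviations of same-numbered arrays from the group means correlated at 0.141, and the numbers were blocked in an alternative. Other alternatives were scaling, low signals, filters, variance models, the methods' t-test, other probe sets and each array left out. Primer sequences are those of the study's supplement.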

Additional observations from a re-analysis of the deposited data

How the results depend on the processing

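Over the 588 values of single members under the alternatives, none changed direction while called, 27 lost a call and 15 gained one. Sod3, Glrx, Gstm1 and Txnip kept their calls under every alternative run except the methods' t-test (Txnip has no value where probe sets shared by several transcripts are left out). With the replicate block, which treats same-numbered arrays as pairs, 9 members were higher and 7 lower: Prdx3, Srxn1, Txn2 and Mgst3 were added to the first and Gstp1 to the second (adjusted p = 0.00335).

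The members' median of 0.12 was 0.0418 as deposited, 0.0497 after quantile normalization, 0.113 with no filter, 0.126 with the filter on all 4 arrays, 0.107 when centred on the tested probe sets (chosen after seeing the data) and 0.103 to 0.168 with an array left out. Leaving out arrays gave 3 to 7 members lower, 2 to 6 higher, and 706 to 2519 probe sets lower and 924 to 2128 higher. The lowest counts of members came without mutant siRNA replicate 1 (3 lower, 3 higher) and mutant siRNA replicate 2 (6 lower, 2 higher); the lone array is then assumed to vary like the other group. Without an intensity trend, Gpx8, Prdx5, Gsta4, Hmox1, Nqo1 and Akr1b8 were not called (adjusted p from 0.0674 to 0.1115), 1 member was higher, and 1187 probe sets were lower and 1177 higher. Without the members the study picked, 3 were lower.

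The methods' t-test at the methods' threshold, unadjusted, found 5 members lower and 5 higher (1386 and 2444 of all probe sets). After Benjamini-Hochberg it called 0 members in either direction, 0 probe sets lower and 2 higher, and Sox10 at -3.54 had an adjusted p of 0.184. With 2 arrays a group, small changes near background were not detectable.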

Other observations

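Gpx1, the cytosolic glutathione peroxidase, separated the replicates and not the siRNAs. Its signals were 5524 with the wild type and 4962 with the mutant siRNA in replicate 1. In replicate 2 they were 13210 and 13940. It was the 1 member of 37 whose replicates lay over 2-fold apart in the same direction in both groups, as did 63 of the 9163 genes tested, and 16 genes (0.175%), Gpx1 among them, differed by at least as much. It was singled out after its values were seen.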
